A study of Mus musculus with 16 samples.

Results

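The genes described here are 10 members of the interleukin-6 (IL-6) cytokine family and its signalling route: the receptor chains Il31ra, Osmr, Lifr, Il6st, Il6ra and Il11ra1, the ligand Lif, the transcription factor Stat3, and the feedback inhibitors Socs3 and Socs2. They were taken by gene symbol from 55357 gene rows measured in whole back skin and 56953 gene rows measured in sorted hair follicle stem cells (HFSC), and all 10 had a row in both tables. The set was chosen because Il31ra was abundant in control HFSC and lower in eKO HFSC, so the HFSC values of these 10 genes are given as a description, with no test. The skin values did not enter that choice and were tested.

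All 16 libraries came from C57BL/6 mice, either controls or animals labelled GRK2 eKO (eKO below). The labels do not spell out the abbreviation, and the promoter or cell type that drives the deletion is not given in the sources used here. GRK2, the G-protein-coupled receptor kinase encoded by Grk2, phosphorylates activated receptors of that class, and the study concerns its part in hair follicle homeostasis. Skin was sampled as total RNA in 5 control and 5 eKO libraries from mice aged 8 months. HFSC, which reside in the bulge of the follicle, were sorted as CD34+ α6-integrin+ cells in 3 control and 3 eKO libraries. Their age is 18 months by the sample labels but 8 months by the design text, and which holds is not settled. Nothing beyond the sample labels says which libraries came from separate animals, so p-values measure the spread between these libraries.

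Cytokines of the IL-6 family signal through receptors that pair a ligand-binding chain with a shared signalling chain. For IL-6, IL-11, leukaemia inhibitory factor (LIF) and others the shared chain is gp130, the product of Il6st. The IL-31 receptor is the exception, a pair of IL-31RA and the oncostatin M receptor chain OSMR without gp130. Engaged receptors activate Janus kinases, which phosphorylate STAT3; STAT3 in turn induces Socs3, whose product binds gp130 and the kinases and ends the signal. In skin, IL-31 is best known as an itch cytokine, and STAT3 in keratinocytes is known for its part in wound repair and the hair cycle.

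The bases upstream of 2 members are shown because they hold the palindromic letters TTCNNNGAA, a form of the sequence that STAT proteins are known to bind. RefSeq promoter windows, 300 bases from 250 before to 50 after a transcription start in build GRCm38.p6, were given for 9 of the 10 members in 11 windows. The motif, which reads the same on both strands, occurred in 2 of them, and 8.30% of all 32851 mouse promoter windows of that length hold it. The first stretch lies at chr13:112580733-112580912 on the minus strand, 250 to 71 bases before the Il31ra start. The second lies at chr11:117969502-117969530 on the minus strand, 164 to 136 bases before a RefSeq start of Socs3 that differs from the starts in the GENCODE M21 annotation. Capitals mark the motif.
Il31ra: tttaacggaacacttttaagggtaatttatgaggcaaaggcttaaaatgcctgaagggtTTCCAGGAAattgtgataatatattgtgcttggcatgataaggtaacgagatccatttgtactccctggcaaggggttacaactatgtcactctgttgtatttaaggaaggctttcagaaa
Socs3: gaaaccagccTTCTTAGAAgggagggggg
These matches describe letters only; no binding was measured in these libraries. In the RefSeq order of genes on chromosome 13, Il6st is the nearest neighbour of Il31ra, so the genes of gp130 and of its relative IL-31RA lie side by side. The pair differed in opposite directions between the genotypes in HFSC, as the values below show.

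Reads assigned to genes ran from 11.6 M to 14.2 M (M, the SI prefix mega) per library in control skin and from 8.21 M to 16.4 M in eKO skin. HFSC libraries held 6.43 M to 6.73 M reads in controls and 6.43 M to 9.39 M in eKO. Levels are given as normalised read counts as deposited by the authors, that is, reads per gene over a size factor for each library. Grk2 was 135 ± 12.0 in control and 114 ± 8.68 in eKO HFSC (SD, n = 3; adjusted p = 0.501), and 1298 ± 144 and 1110.4 ± 93.8 in skin (SD, n = 5; adjusted p = 0.343, both limma). The libraries labelled eKO are therefore called so by their labels and not by a measured loss of Grk2 RNA. Of the sort markers, Cd34 had a log2 difference of -0.08 between HFSC genotypes (adjusted p = 0.638) and Itga6 was higher in eKO by 0.58 (adjusted p = 5.10e-04, both limma). HFSC libraries also differed by genotype in markers of other cells. The summed level of 9 endothelial markers ran from 14.7 to 44.0 in control HFSC and from 1046 to 1270 in eKO HFSC, with 7 of 8 tested markers higher and Cldn5 at 0. Differentiated epidermis markers summed to 2498–4344 and 15977–16747 (3 of 5 higher, 1 lower), and sebaceous gland markers to 2733.5–2854 and 10849–11814 (3 of 5 higher). Hair matrix and shaft markers summed to 608–724 and 2368–2629 (8 of 9 tested higher, out of 18 listed, Krt34 and Krt81 at 0). Leukocyte markers summed to 97.7–99.98 and 32.0–91.0 (1 of 3 tested lower, Itgam at 0). The 4 Y-linked genes summed to 2340–2476 in control and 704–831 in eKO HFSC, and all 4 were lower. The part of these differences in the HFSC results below was not tested. In bulk libraries fewer cells of a type and less RNA per cell cannot be told apart.

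Among the receptor chains, Il31ra stood out in HFSC by its level. Its normalised read counts were 11822, 11421 and 10656 in the 3 control libraries and 3793, 3720.4 and 4257 in the 3 eKO libraries. Every eKO library was far below every control library. The means were 11299 ± 592 and 3923 ± 291 (SD, n = 3), which is 2.88-fold lower in eKO, a log2 fold change of -1.53 with a standard error (SE) of 0.08. Per kb of exon, Il31ra ranked between 67 and 86 among 20839 genes in the control HFSC libraries and between 381 and 462 in the eKO libraries, so it remained an abundant transcript in eKO cells. Lgr5, a stem cell marker of the bulge, was also lower in every eKO library, at 7251, 7407.5 and 7469.5 in control and 3978, 3867 and 3654 in eKO libraries. It was the only one of 9 bulge markers to fall by limma; Itga6 and Ctnnd2 rose and the other 6 did not pass, and the 9 summed to 153450–156630 in control and 133610–152600 in eKO HFSC.

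Osmr, the partner chain of IL-31RA, overlapped between the genotypes in HFSC. It was 786, 1031 and 689.9 in control and 955, 846 and 865 in eKO libraries (log2 fold change 0.11, SE 0.15). The excess of Il31ra over Osmr was therefore smaller in eKO cells. Per kb of exon, Il31ra was 29.6 ± 5.15 times the level of Osmr in control HFSC and 9.46 ± 1.02 times in eKO HFSC (SD, n = 3), and the lowest control ratio, 23.7, was above the highest eKO ratio, 10.5. In both genotypes the level of Il31ra RNA exceeded that of its partner. The ligand gene Il31 was listed at 0 in all 6 HFSC libraries and at no more than 2.09 in any skin library.

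The receptor chains of the gp130 branch were in the opposite order. Lifr, the LIF receptor chain, was 4388, 4645 and 4504 in control HFSC and 5827, 5492 and 5348.5 in eKO HFSC (log2 fold change 0.30, SE 0.08). Il6st, which encodes gp130, was 1158, 987 and 1023 in control and 1382, 1605 and 1679 in eKO libraries (log2 fold change 0.56, SE 0.11). Both were higher in each eKO library than in any control library. Per kb of exon, Lifr was 4.43 ± 0.482 times the level of Il6st in control HFSC and 3.72 ± 0.556 times in eKO HFSC (SD, n = 3).

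The chains specific to IL-6 and IL-11 did not separate the genotypes in HFSC. Il6ra, the IL-6-binding chain, was 340.07, 296 and 271 in control and 340.4, 328 and 189.6 in eKO libraries (log2 fold change -0.12, SE 0.22). Il11ra1, the IL-11-binding chain, was 691, 679.5 and 552 in control and 591, 445 and 449.5 in eKO libraries (log2 fold change -0.38, SE 0.15). For Il11ra1 a single eKO library, at 591, reached into the control range.

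Lif, a secreted ligand of the LIFR and gp130 pair, was low in HFSC and higher in eKO. It was 7.98, 13.7 and 19.0 in control and 50.8, 54.8 and 23.4 in eKO libraries, from 8, 13 and 19 reads and 67, 50 and 22 reads. The groups did not overlap, but the lowest eKO library was close to the highest control library. The means, 13.6 ± 5.51 and 43.0 ± 17.1 (SD, n = 3), differed 3.17-fold, and the log2 fold change was 1.58 with an SE of 0.55.

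Stat3 and the SOCS genes were all higher in eKO HFSC. Stat3, the transcription factor of the route, was 2400.5, 2572 and 2532.5 in control and 3049, 3331 and 2952 in eKO libraries (log2 fold change 0.31, SE 0.09). Socs3, its feedback inhibitor and a STAT3 target gene, was 546.5, 531 and 603 in control and 796, 779 and 669 in eKO libraries (log2 fold change 0.41, SE 0.13). Socs2, an inhibitor best known for restraining growth hormone signalling, was near the bottom of the measured range, at 12.0, 11.6 and 9.998 in control and 25.8, 34.0 and 49.0 in eKO libraries. These Socs2 values rest on 12, 11 and 10 reads and on 34, 31 and 46 reads, and the log2 fold change was 1.57 with an SE of 0.52. In none of these 3 genes did a control library reach the lowest eKO library.

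**Figure D1:**
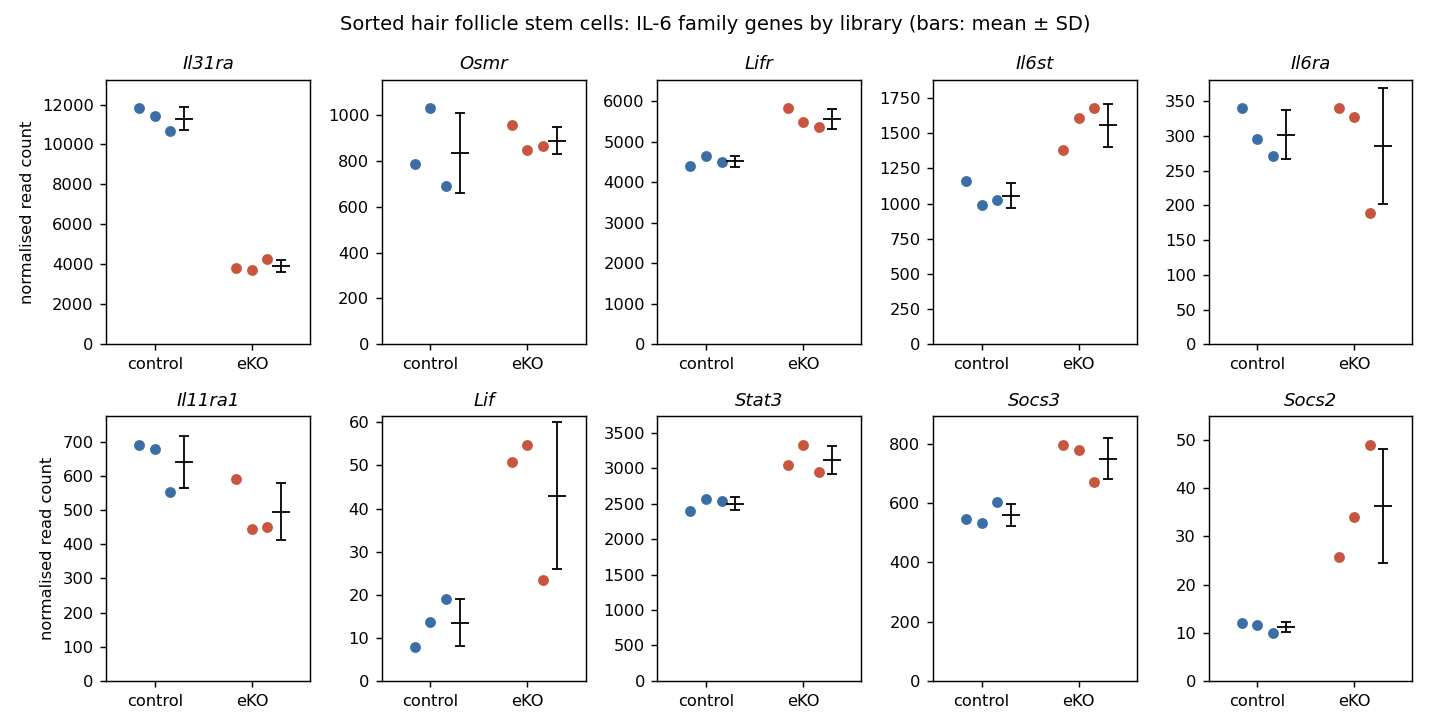
Normalised read count (vertical axes, from 0) of each of the 10 genes in the 3 control and 3 eKO HFSC libraries; points are libraries and bars are mean ± SD. Il31ra lies at 10656 to 11822 in control and 3720.4 to 4257 in eKO libraries, Lifr, Il6st, Lif, Stat3, Socs3 and Socs2 lie higher in every eKO library, and Osmr, Il6ra and Il11ra1 overlap.

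In HFSC, 7 of the 10 genes therefore had groups that did not overlap, 6 higher in eKO and 1 lower. Over all 13784 genes tested in HFSC, 18.9% did not overlap with eKO higher and 17.4% with eKO lower. The median log2 fold change was 0.31 over the 10 genes and -0.03 over all genes. Because these genes were chosen on this contrast, nothing is read from the counts. All 10 passed the filter on low values in both tissues.

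The order of levels per kb of exon was steep in HFSC. In control libraries it ran Il31ra at 1992 ± 104, Lifr at 419 ± 12.0, Stat3 at 263 ± 9.43, Socs3 at 194 ± 13.1, Il11ra1 at 143 ± 17.3, Il6st at 95.1 ± 8.13, Osmr at 69.0 ± 14.5, Il6ra at 35.0 ± 4.05, Lif at 3.11 ± 1.27 and Socs2 at 1.17 ± 0.109 (SD, n = 3). No neighbours in that order overlapped over the 3 libraries. In eKO HFSC Il31ra was still first, at 692 ± 51.3, with Lifr next at 516 ± 22.8, and Il6st at 140.1 ± 13.9 stood before Il11ra1 at 111 ± 18.5, the only neighbours of 9 pairs whose libraries overlapped. The gap between the leading genes was therefore much narrower in eKO than in control cells.

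Whole skin had another order. There Il6st led at 539 ± 146 per kb in controls, followed by Il6ra at 436 ± 115, Socs3 at 337 ± 155, Stat3 at 251 ± 69.1, Il31ra at 210.4 ± 83.6, Lifr at 157 ± 33.8, Osmr at 93.5 ± 34.8, Il11ra1 at 86.3 ± 8.77, Socs2 at 26.8 ± 19.3 and Lif at 14.9 ± 8.55 (SD, n = 5). In 8 of the 9 neighbouring pairs the libraries overlapped, and only Il11ra1 and Socs2 were apart. Il31ra ranked between 1676 and 5728 among 26880 genes in control skin. Per kb, Il31ra was 2.45 ± 1.21 times the level of Osmr in control skin and 1.33 ± 0.439 times in eKO skin (SD, n = 5), and these ratios overlapped. The tables of the tissues were normalised separately by the authors, so levels were ranked within each table and not tested across them.

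**Figure D2:**
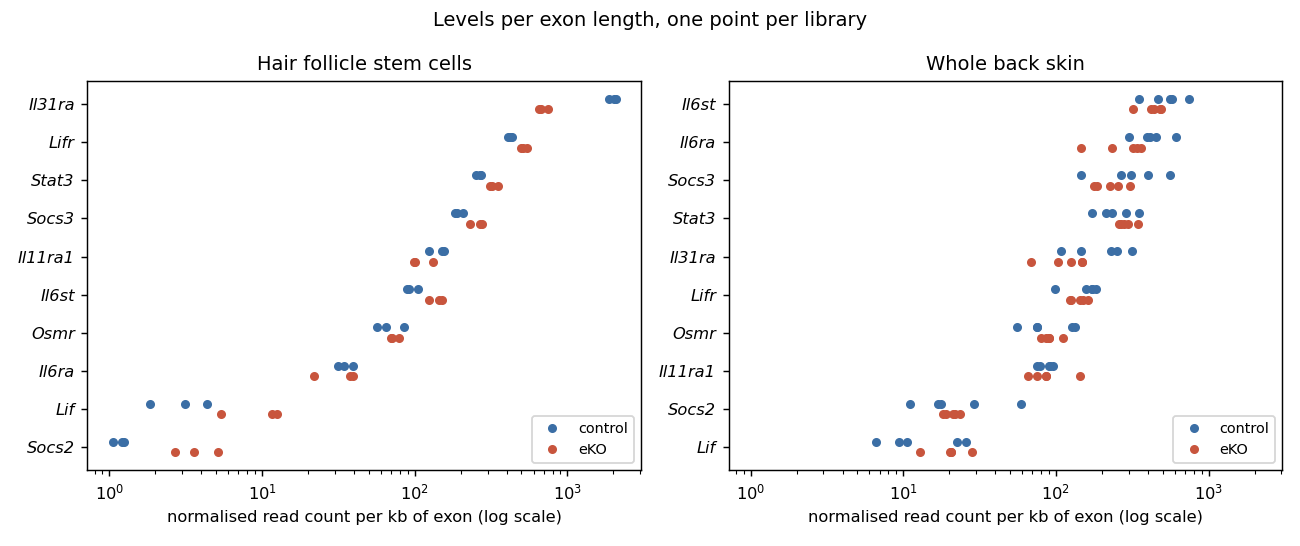
Normalised read count per kb of exon (horizontal axis, log scale) of the 10 genes in HFSC and in whole skin, 1 point per library, coloured by genotype. In HFSC Il31ra stands far right at a control mean of 1992 and the genes are well separated, whereas in skin Il6st leads at a control mean of 539 and neighbouring genes overlap.

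In whole skin the question was whether the same genes differed between the genotypes. By limma none of the 10 did after adjustment over the 16589 genes tested, where 62 genes (0.374%) passed an adjusted p of 0.05; edgeR and DESeq2 on the recovered reads also called 0 of the 10. At an unadjusted p under 0.05 there were 2, Il31ra and Il6ra, beside 14.2% of all genes. In none of the 10 did the groups avoid overlap, against 4.18% of all genes. The log2 fold change was positive in 4 and negative in 6, with a median of -0.13 over the 10 genes and 5.9e-05 over all genes.

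Il31ra had the lowest mean ratio of eKO to control among the 10 in skin as well. It was 1294, 1429, 832, 612 and 1799 in the control libraries and 585, 835, 712, 388 and 841 in the eKO libraries. The highest 3 libraries were controls and the lowest 2 were eKO, with overlap between. The log2 fold change was -0.78 with an SE of 0.31 and a 95% interval of -1.46 to -0.10 (limma, p = 0.0277, adjusted p = 0.280; exact two-sided permutation p = 0.0714, where the smallest possible is 0.00794). Skin libraries varied widely in hair follicle growth genes, with hair matrix and shaft markers summing to between 423 and 178180 in controls and between 620 and 67872 in eKO. With that list as a covariate the Il31ra difference was -0.81 (adjusted p = 0.197).

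Il6ra, the IL-6-binding chain, was the other gene with a lower skin level at an unadjusted p under 0.05. It was 3926, 3569.9, 5320.5, 2599.8 and 3429 in control and 2745, 2934, 2014, 1254 and 3137 in eKO libraries. A single control library, at 2599.8, lay within the eKO range. The log2 fold change was -0.68 with an SE of 0.26 and a 95% interval of -1.25 to -0.10 (limma, p = 0.0261, adjusted p = 0.275; exact two-sided permutation p = 0.0397). In HFSC the same gene overlapped between the genotypes.

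The other receptor chains did not differ beyond the spread of the skin libraries. Osmr ran from 676 to 1627 in control and from 973 to 1341.5 in eKO skin (log2 fold change 0.04, 95% interval -0.46 to 0.54). Lifr ran from 1066 to 1986 and from 1324 to 1760 (-0.13, -0.50 to 0.23). Il6st ran from 3906 to 8294 and from 3523 to 5375 (-0.31, -0.74 to 0.12). The estimates for Il6st and Lifr had the opposite sign to those in HFSC, but neither passed the test in skin. Il11ra1 ran from 337 to 430.3 and from 295 to 647 (0.04, -0.38 to 0.45).

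Downstream, Stat3 in skin was 2038, 2723, 3337.5, 1636 and 2207 in control and 2548, 2643, 2466, 3264 and 2817 in eKO libraries (log2 fold change 0.24, SE 0.18; limma adjusted p = 0.587). Socs3 was 769, 1619, 1165, 419 and 902 in control and 515, 739, 538, 878 and 658 in eKO libraries (log2 fold change -0.44, SE 0.31; adjusted p = 0.572). Socs3 was spread more widely over the control libraries (SD 449) than over the eKO libraries (SD 149.7). Lif was 98.4, 28.7, 40.7, 45.7 and 111 in control and 122, 56.0, 89.3, 89.9 and 87.7 in eKO libraries (0.60, SE 0.37; limma adjusted p = 0.518). Socs2 ran from 105 to 565 in control and from 174 to 226 in eKO skin (-0.12, SE 0.37; adjusted p = 0.914). Of these only Lif and Stat3 had higher means in eKO skin, as they had in eKO HFSC.

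**Figure D3:**
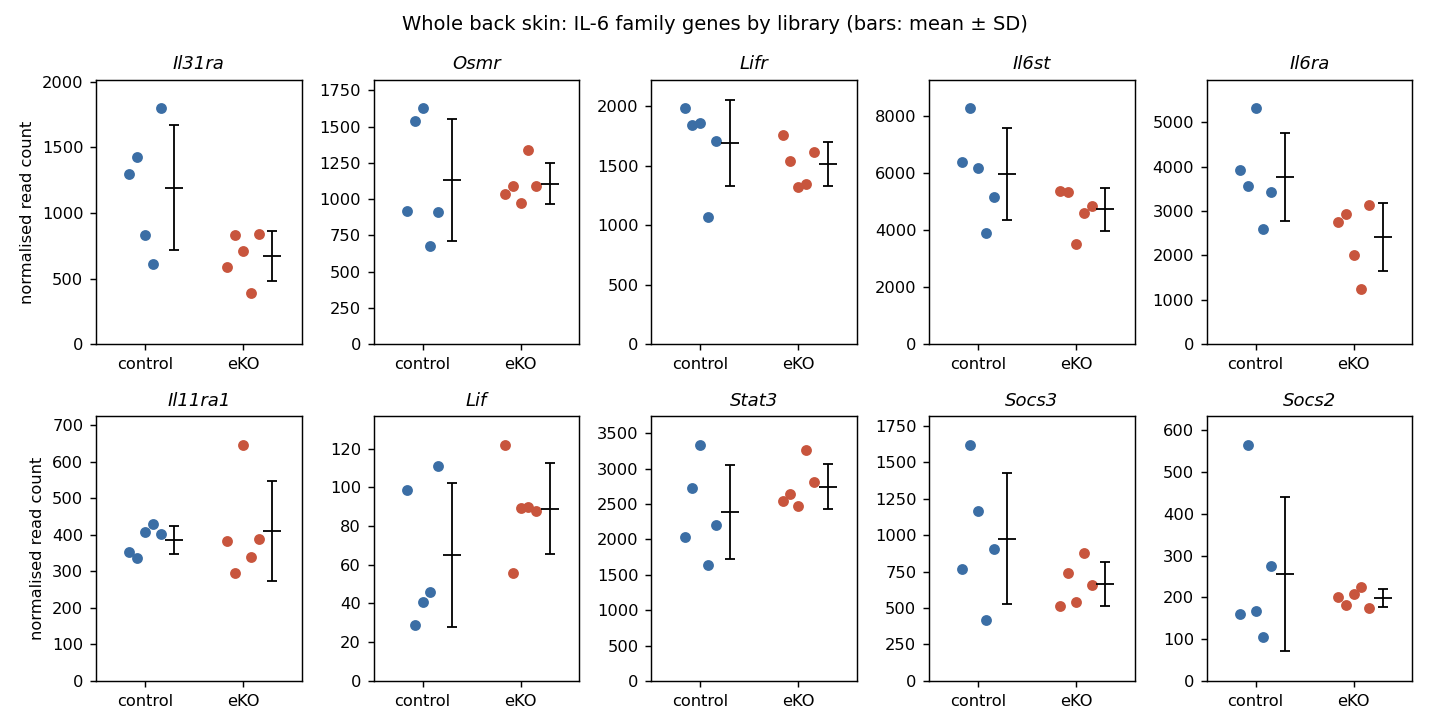
Normalised read count (vertical axes, from 0) of each of the 10 genes in the 5 control and 5 eKO skin libraries; points are libraries and bars are mean ± SD. The genotypes overlap in every gene; Il31ra reaches 1799 in control against 841 in eKO skin, and Il6ra 5320.5 against 3137.

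Chains that work as a pair were compared over the 10 skin libraries, 3 relations in all, with p-values from permutation. Lifr and Il6st, the chains of the LIF receptor, went together: Pearson's r was 0.817 (p = 0.00364, adjusted 0.0109) and Spearman's rho 0.915 (p = 7.10e-04, adjusted 0.00213). With each gene centred within its genotype r was 0.816 (adjusted p = 0.00471). With the 2 libraries most distant from the median of Lifr (control 4 and eKO 3) left out, r was 0.715 (permutation p = 0.0456, adjusted 0.137) and rho 0.857 (adjusted p = 0.0319), so the adjusted call was lost for r and kept for rho. Il31ra and Osmr, the chains of the IL-31 receptor, had r = -0.00745 (permutation p = 0.984, adjusted 0.984) and rho = -0.0667 (p = 0.866); r was 0.462 (adjusted p = 0.378) when the 2 libraries most distant in Il31ra were left out.

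Stat3 and Socs3 had r = 0.558 over all 10 libraries (permutation p = 0.0936, adjusted 0.140) and rho = 0.503 (p = 0.142, adjusted 0.213). Centred within genotype, r was 0.861 (permutation p = 0.00292, adjusted 0.00471) and rho 0.867 (permutation adjusted p = 0.00624). The permutations of centred values, here and for Lifr and Il6st, made no allowance for the group means removed, so these p-values tend to be too small. With control 3 and control 4, the libraries most distant from the median of Stat3, left out, r over the rest was 0.146 (adjusted p = 0.728). The pooled relation thus rests on those libraries. The centred r was not recomputed without them. Control 5 and eKO 3 lack Y-linked reads; over the other 8 skin libraries r was 0.832 for Lifr and Il6st (permutation adjusted p = 0.0312), 0.622 for Stat3 and Socs3 (adjusted p = 0.145) and 0.150 for Il31ra and Osmr (adjusted p = 0.725).

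**Figure D4:**
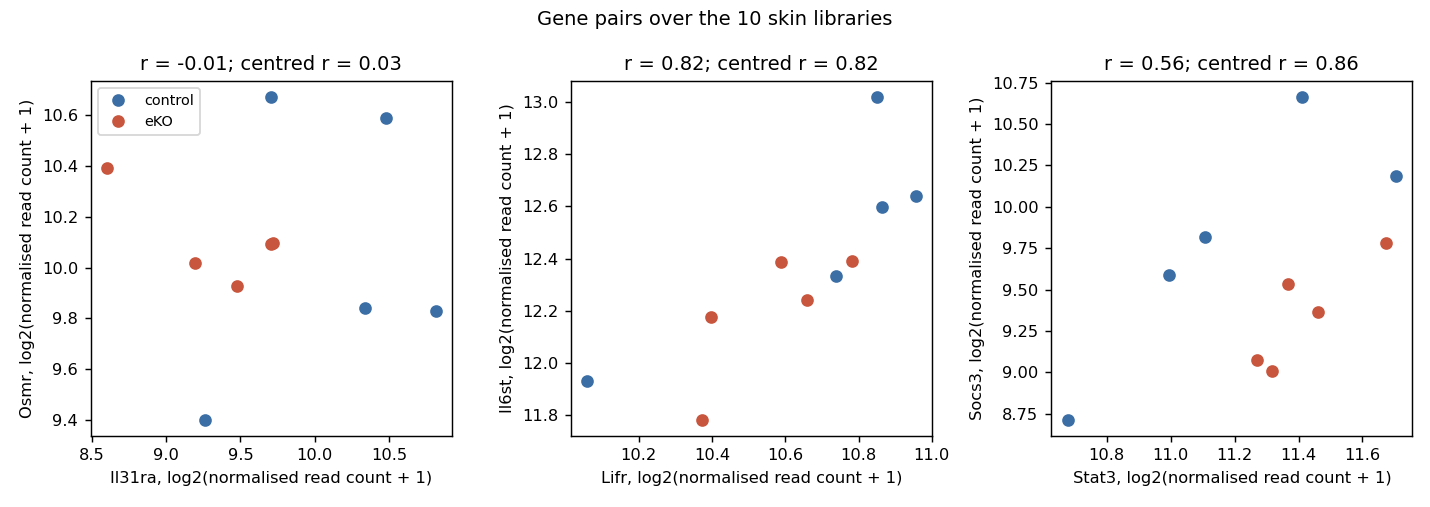
Each panel plots 2 genes against each other as log2(normalised read count + 1), 1 point per skin library, coloured by genotype. Lifr and Il6st lie along a line (r = 0.82), Il31ra and Osmr do not (r = -0.01), and Stat3 and Socs3 have r = 0.56 pooled and 0.86 centred within genotype.

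The rest of the pathway was read from a list of 50 further genes: ligands, receptors, kinases and STATs, inhibitors, and genes widely reported to respond to STAT3. The list was drawn up with earlier results of these data known. In HFSC 35 of them were tested and 12 differed between the genotypes by limma, 9 higher and 3 lower in eKO (34.3% of those tested). Over all genes 19.4% passed, 10.7% higher and 8.74% lower. Lrg1 and Cebpb, among the 9 higher, passed the filter on low values only through their eKO libraries. The median log2 fold change was 0.14 over the 35 genes and -0.03 over all genes. The count depended on single libraries: it was 7 without control 1 and 5 without control 2. The part of the endothelial, epidermal, sebaceous and Y-linked differences given above in these calls was not tested.

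Of 4 ligands tested in HFSC 1 passed (25%, beside 19.4% of all genes). This was Ctf1, which encodes cardiotrophin, a ligand of LIFR and gp130. It rose from 126 ± 76.6 to 289 ± 83.5 (SD, n = 3; log2 fold change 1.36, SE 0.40; limma adjusted p = 0.0295). Il6 was listed at 0 in 5 of the 6 HFSC libraries and at 4.26 in the other, and Osm, the ligand of OSMR, was listed at 0 in 5 and at 7.67 in the other. Hif1a, which most cells transcribe, was also listed at 0 in every library, so a 0 in these tables is not read as absence. Of 5 kinases and STATs tested, 2 passed (40%). Both were higher in eKO; Jak1, the kinase bound by gp130, rose from 1071 ± 145 to 1446 ± 98.9 (SD, n = 3; log2 fold change 0.44, SE 0.12; limma adjusted p = 0.0213).

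Of 11 inhibitors tested in HFSC, 1 rose and 1 fell (18.2%, near the 19.4% of all genes). Ptpn1, a phosphatase that acts on Janus kinases, rose from 547.0 ± 16.1 to 805 ± 64.2 (SD, n = 3; log2 fold change 0.55, SE 0.12; limma adjusted p = 0.00694). Pias3, which encodes an inhibitor of DNA-bound STAT3, fell from 722 ± 38.4 to 516 ± 35.6 (-0.48, SE 0.13; adjusted p = 0.0172). None of Socs1, Socs4, Socs5, Socs6 and Socs7 passed.

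Of 14 STAT3-responsive genes tested in HFSC, 5 rose and 2 fell (50%, beside 19.4% of all genes). Lrg1 and Cebpb are among the 5 that rose, and both passed the filter on low values only through their eKO libraries. Nothing is therefore read from this share. Lrg1, a secreted glycoprotein gene of the acute-phase response that endothelium also expresses, had by far the largest change among the listed genes. It was 8.98, 7.36 and 8.00 in control and 1169, 738 and 749.9 in eKO libraries, 109-fold higher in eKO (log2 fold change 6.57, SE 0.29; limma adjusted p = 2.66e-08). The endothelial marker Plvap had a like pattern, at 5.98, 5.26 and 8.998 in control and 434, 532 and 489 in eKO libraries. The AP-1 gene Junb rose from 3583 ± 133 to 5530 ± 476 (0.62, SE 0.09; adjusted p = 2.76e-04), and Il4ra, the interleukin-4 receptor chain, rose from 212 ± 22.2 to 479 ± 124 (1.15, SE 0.20; adjusted p = 0.00133).

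Myc rose by 0.34 on the log2 scale (SE 0.09; limma adjusted p = 0.0221). Cebpb, a transcription factor gene of inflammation, rose from 6.43 ± 2.51 to 42.1 ± 28.5 (SD, n = 3; adjusted p = 0.0222). Cebpb passed the filter on low values only through its eKO libraries, so nothing is read from its p-value. Its call was lost under 4 of the 12 alternatives of the HFSC analysis. The genes that fell were Fos, from 335 ± 19.9 to 213 ± 45.4 (adjusted p = 0.0293), and Bcl6, a repressor gene, from 197 ± 63.5 to 96.2 ± 38.4 (adjusted p = 0.0340). Genes reported to respond to STAT3 therefore moved in both directions, and the AP-1 partners Junb and Fos moved apart. Of the 12 genes called, 5 passed under all 12 alternatives of the HFSC analysis, Lrg1, Ptpn1, Junb and Il4ra among them, while 7 missed the threshold in at least 1.

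In skin 41 of the 50 genes were tested, and limma and edgeR called 0; DESeq2 called 2, Cebpb among them, where it called 3.95% of all genes. At an unadjusted p under 0.05 limma had 7 (17.1%), near the 14.2% of all genes, and the median log2 fold change was -0.02 against 5.9e-05 over all genes. For Cebpb the log2 fold change was 0.75 (limma adjusted p = 0.184, DESeq2 adjusted p = 0.0409). Its groups did not overlap, the 1 such case among the 41 genes (2.44%, below the 4.18% of all genes). It is named for skin after its values there were seen.

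The genotype effect was compared between HFSC and skin for the 35 listed genes tested in both. By the sample labels the tissues also differed in age, 8 months for skin and 18 months for HFSC. If so, the parts of tissue and age cannot be told apart. As their list was drawn up with earlier results known, it is not independent of these data. By an interaction contrast in limma 1 of them differed, beside 5.62% of all 13227 genes. That gene was Lrg1, whose log2 fold change in HFSC exceeded that in skin by 6.05 (SE 0.64; adjusted p = 2.88e-05). In skin the fold change was 0.53 (SE 0.46; adjusted p = 0.657). Lrg1 was already at 811 ± 626 in control skin (SD, n = 5), but at 8.11 ± 0.812 in control HFSC (SD, n = 3), in tables normalised separately. Lrg1 had passed the HFSC filter on low values only through its eKO libraries. For the other 34 genes the difference between tissues did not pass the test. The count of 1 became 3 without HFSC control 3 or eKO 3, and 2 without skin control 2, 4 or 5 or eKO 4.

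**Figure D5:**
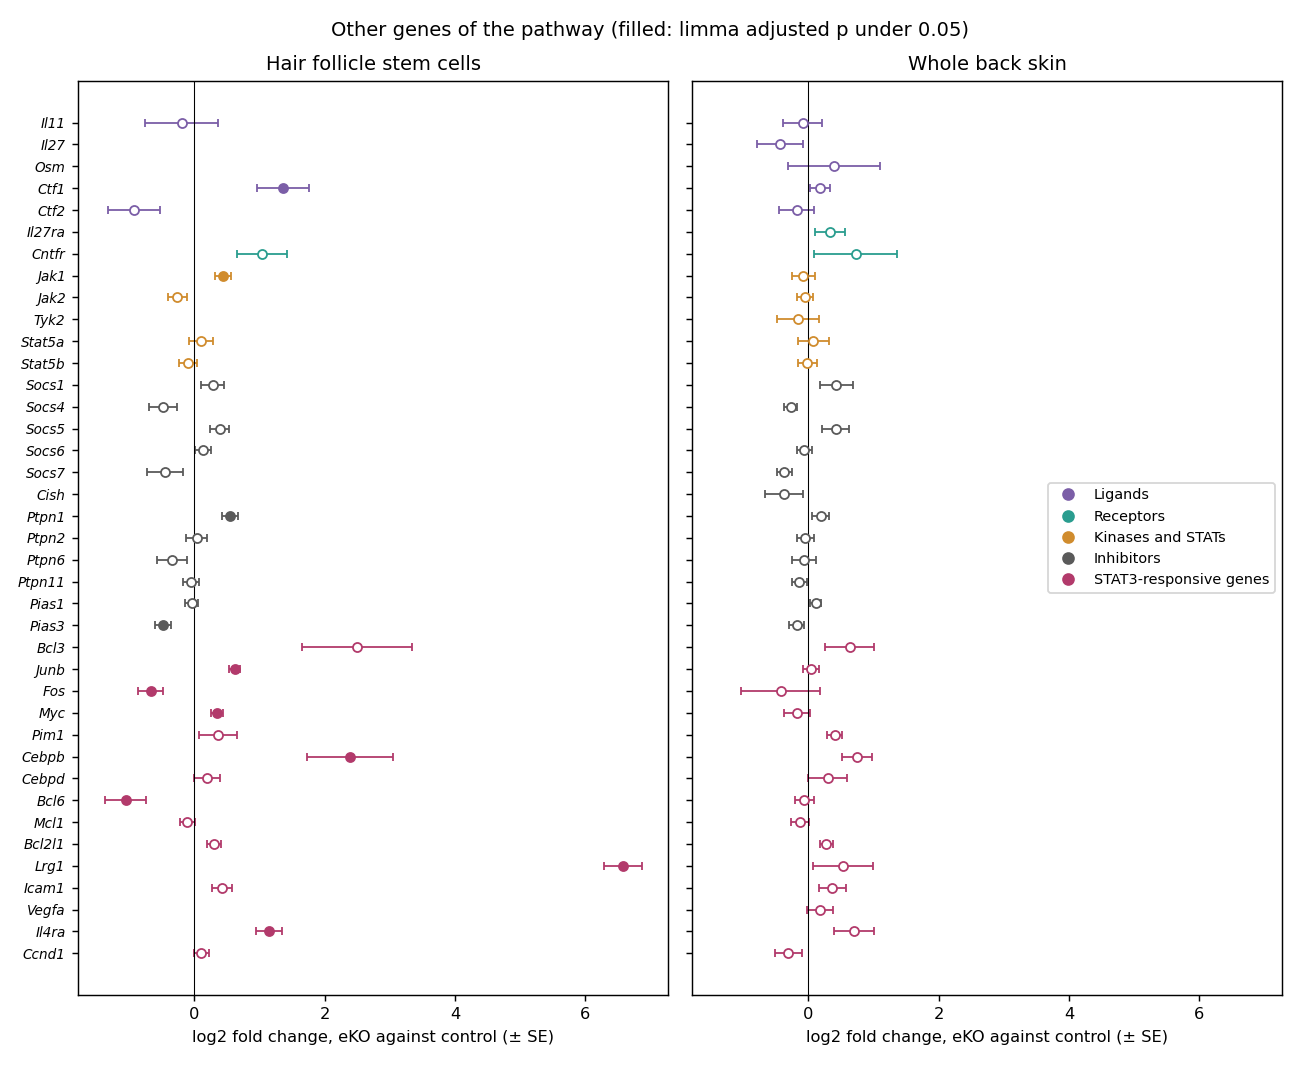
Log2 fold change of eKO against control (horizontal axis, ± SE) for the other pathway genes reported here in HFSC and in whole skin, coloured by role, with filled points for a limma adjusted p under 0.05. In HFSC Lrg1 lies farthest at 6.57, and in skin no point is filled.

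The genes most like Il31ra across libraries were taken by Pearson's r of log2 values, as a description. Over the 10 skin libraries they were Nop53 (r = 0.932), Speer5-ps1 (0.923), Sfrp4 (0.908), Smim19 (0.908) and Inpp5k (0.905). None of the other 9 genes described here was among them. Over the 6 HFSC libraries they were Clasp2 (0.999), Plxna2 (0.998), Dpy19l1 (0.998), Gm48336 (0.997) and Mertk (0.996), where the points share the gap between the genotypes.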

How the data were processed

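The authors deposited 1 table per tissue, and all 16 library columns were used (0 columns were left unused). Per the submitters' processing notes the build was GRCm39 for both tables, with featureCounts and DESeq2 named for skin; the aligner, the use of strand and the annotation are not given in the sources used here. The deposited values are a normalised signal: from the values themselves, reads per gene were divided by a size factor for the library, and 100% of nonzero values were whole reads within 0.01. Symbols and exon lengths came from GENCODE M21 by identifier (94.1% of skin and 91.4% of HFSC rows matched), and promoters from RefSeq.

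Genes reaching 10 in 5 or more skin libraries, or in 3 or more HFSC libraries, were tested with limma 3.58.1 (R 4.3.3; trended prior, log2(value + 1)). P-values were adjusted by Benjamini-Hochberg over all genes tested, with a threshold of 0.05. Fold changes on this scale understate the change of low genes. Each tissue was fitted alone, and the difference between tissues was a contrast of 4 group means. Single values and correlations were tested by permutation (exact for the groups of 5; 100000 resamples for correlations; SciPy 1.17.1, Python 3.11.15). Alternatives were edgeR 4.0.16 and DESeq2 1.42.0 on the recovered reads, a pseudocount of 5, no filter, equal library totals, leaving out each library, the replicate number as a block in HFSC, the hair matrix and shaft list as a covariate and the libraries with Y-linked reads in skin. The fits were tested on simulated data in which every gene had the same dispersion, so the wider spread of some skin genes was not covered. Counting error alone, for reads without molecular identifiers, limits values of a few reads.

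The genes and lists were chosen with earlier results of these data known. The 10 genes are always named; of the 50 further genes, those past the threshold are named, at most 20 per tissue by smallest p, with the 5 genes of highest correlation with Il31ra per tissue, and Grk2, Cd34 and Itga6 as checks. No libraries were duplicates of each other. Protein sequences were not used here. Of the 50 further genes, 2 enter the counts but are not reported here by name.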

Additional observations from a re-analysis of the deposited data

Results flagged for a closer look

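In 5 of 56 groups of 5 skin libraries examined, 1 library stood farther from the others than Dixon's 95% limit allows; chance alone flags about 1 in 20. Control 4 had the lowest Bcl6 level of its group, 1733 against 2487 in the next library. Control 2 had the highest Il4ra level, 2470 against 1176. Library eKO 4 had the highest Cebpb level, 1012 against 507. Library eKO 3 had the highest Il11ra1 level, 647 against 388, and the lowest Jak1 level, 1310 against 1648; it is also 1 of the 2 skin libraries that lack Y-linked reads. Of the 10 genes described, Il11ra1 is the only one with such a library.

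The genotype effect on Lrg1 differed between the tissues, by 6.05 on the log2 scale (interaction contrast in limma), and the difference passed under all 19 alternatives, from 5.53 to 6.30. By the sample labels the tissues also differed in age, and if so the parts of tissue and age cannot be told apart. Lrg1 had passed the HFSC filter on low values only through its eKO libraries. The summed endothelial markers differed with Lrg1 in HFSC (14.7 to 44.0 in control and 1046 to 1270 in eKO). Their part in the Lrg1 difference was not tested.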

How the results depend on the processing

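Of 619 recomputed values of 46 single-gene results, 576 kept their direction and their side of the threshold, 28 lost the call, 2 gained it, 1 moved by more than its spread and 12 changed sign. Il31ra kept its direction under every alternative run, from -0.99 to -0.60 in skin (adjusted p from 0.104 to 0.535) and from -1.60 to -1.49 in HFSC. The values that changed sign were small. Osmr in skin was -0.0341 with DESeq2 and -0.034 with edgeR and ran from -0.13 to 0.19 when single libraries were left out. Il11ra1 in skin was -0.12 without the libraries that lack Y-linked reads and ran from -0.14 to 0.14 when single libraries were left out, with the lowest value without eKO 3. Socs2 in skin ran from -0.37 to 0.23, positive only without control 2; in HFSC Osmr ran from -0.0201 to 0.27 and Il6ra from -0.27 to 0.15. Lifr in HFSC was 0.23 with equal library totals. Over all genes, 62 skin calls became 656 with DESeq2, 149 with the hair list as covariate, 37 with no filter, 32 with equal totals and 0 without the 2 libraries that lack Y-linked reads (1790 there at an unadjusted p under 0.05), and 11 to 59 when single libraries were left out, lowest without eKO 1. The 2673 HFSC calls (1468 higher, 1205 lower) became 2808 with equal totals (1271 higher, 1537 lower) and 1540 to 2643 without single libraries, lowest without control 1 and then control 2 (1560.0). The 743 differences between tissues (455 more positive in HFSC, 288 more negative) became 766 with equal totals (372 and 394) and 452 to 837 without single libraries, lowest without HFSC control 1. The 12 further pathway genes called in HFSC became 5 to 11 without single libraries, the 0 in skin became 2 with DESeq2, and the 1 that differed between tissues became 1 to 3. For Il31ra and Osmr in skin r was 0.462 without the 2 farthest libraries, 0.0340 centred within genotype and 0.150 without the libraries that lack Y-linked reads, an alternative chosen after seeing the data; for Lifr and Il6st it was 0.715 without the 2 farthest libraries, and for Stat3 and Socs3 it was 0.861 centred. The cause of these changes was not tested.

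No pairing by HFSC replicate number was seen, though these values cannot exclude one (same-numbered control and eKO libraries had correlations of deviations of -0.060, -0.018 and -0.026). With the replicate block 2696 genes and 12 further pathway genes were called in HFSC. Depth limits Lif and Socs2 in HFSC, whose control values rest on 8 to 19 reads.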

Other observations

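The ratio of Socs3 to Stat3 in each library was examined after the values had been seen. In skin it ran from 0.256 to 0.594 in control libraries (mean 0.397 ± 0.124, SD, n = 5) and from 0.202 to 0.280 in eKO libraries (0.241 ± 0.0331, SD, n = 5). In 3 of the 5 eKO libraries the ratio was below the lowest control (exact two-sided permutation p = 0.0238, where the smallest possible is 0.00794). In HFSC the ratio was 0.224 ± 0.0161 in control and 0.241 ± 0.0181 in eKO libraries (SD, n = 3), given as a description with no test. The difference between the tissues was not tested.

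Across the 10 skin libraries, Il6ra was the gene among the other 9 whose level followed Il31ra most closely (Pearson's r of log2 values 0.693). Lifr (0.598) and Il6st (0.551) came next. Among all genes compared in skin, Il6ra ranked only 496, Lifr 1090 and Il6st 1486, so many genes outside the set followed Il31ra more closely. The values were not centred within genotype. Il31ra, Il6ra, Lifr and Il6st all had lower means in eKO skin, and the part of that shared direction in r was not tested. All points share the library preparations and the hair-cycle spread described above, and the correlation is given as a description.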
